A study of Mus musculus with 8 samples.

Results

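The 10 enzymes described here carry serine synthesis, folate one-carbon metabolism and asparagine synthesis. They were picked by name as a pathway, at a time when earlier results of these data were known, so their counts below describe these genes and are no independent evidence. Each was found once among the 23997 gene symbols of every library. All 10 passed the filter on low values, among 12537 genes tested. Poly(A) RNA was sequenced from neural stem/precursor cells of ICR mice, the dividing cells of the embryonic brain, taken from the telencephalon at E11.5 by the growth protocol (the stage label gives embryonic day 11) and grown with 10 ng/mL basic fibroblast growth factor. The groups were 3 control libraries and 3 libraries of cells transduced with Nfia, a transcription factor gene of the nuclear factor I (NFI) family, both at 3 days after transduction. The labels give no genotype change, do not say what the control cells received, and name neither the vector nor the promoter that drove Nfia. Whether each library is a culture of its own is not stated either, and the p-values therefore cover only library-to-library spread, possibly of technical origin. The comparison addressed which genes respond to Nfia.

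Serine is made from a glycolytic intermediate in the order Phgdh, Psat1 and Psph. Serine hydroxymethyltransferases (Shmt1 in the cytosol, Shmt2 in mitochondria) then move a carbon of serine onto tetrahydrofolate, giving glycine. The folate-bound carbon is passed through mitochondrial enzymes (Mthfd2, Mthfd1l) that release formate and through a cytosolic enzyme (Mthfd1) that takes formate up for purine and thymidylate synthesis, while Aldh1l1 oxidises the cytosolic formyl group to carbon dioxide. Asns makes asparagine from aspartate and glutamine, and with several of the other enzymes it is a known target of the transcription factor ATF4. Aldh1l1 is also widely used as a marker of astrocytes.

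Values are FPKM, fragment numbers scaled to transcript length and library size, so levels are per length and can be compared between genes. The libraries held totals of 474010 to 511700 FPKM. Their depth relative to control 1, read from the steps between low values, lay between 0.760 and 1.11, with Nfia 3 the shallowest; how many reads each held is not known from FPKM. Over genes, libraries of the same group correlated at 0.949 to 0.961 and libraries of different groups at 0.934 to 0.948. Nfia was 19.8, 23.9 and 22.2 FPKM in the control libraries and 69.0, 85.6 and 103.5 FPKM in the Nfia libraries, a log2 difference of 1.91 (adjusted p = 0.000413), with endogenous and introduced transcripts not separated. A log2 difference below is the mean log2(FPKM + 1) of the Nfia libraries less that of the control libraries, and the added 1 shrinks changes of low genes. A gene was called when its adjusted p from limma, with Benjamini-Hochberg adjustment over the 12537 genes, was under 0.05. All adjusted p-values below are from that fit.

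With Nfia, 9 of the 10 enzymes rose and 1, Aldh1l1, fell. Over all genes tested, 16.1% were called higher and 15.1% lower. In 9 enzymes every Nfia library lay above every control library, and in Aldh1l1 every Nfia library lay below, against 24.7% and 22.9% of all genes tested. The median log2 difference of the 10 was 0.42, and that of all genes tested was 0.01. Ratios of mean FPKM ran from 0.691 for Aldh1l1 to 2.57 for Mthfd1l. Of the 10 calls, that of Phgdh depended on single libraries, and the other 9 stayed with each library removed in turn.

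**Figure D1:**
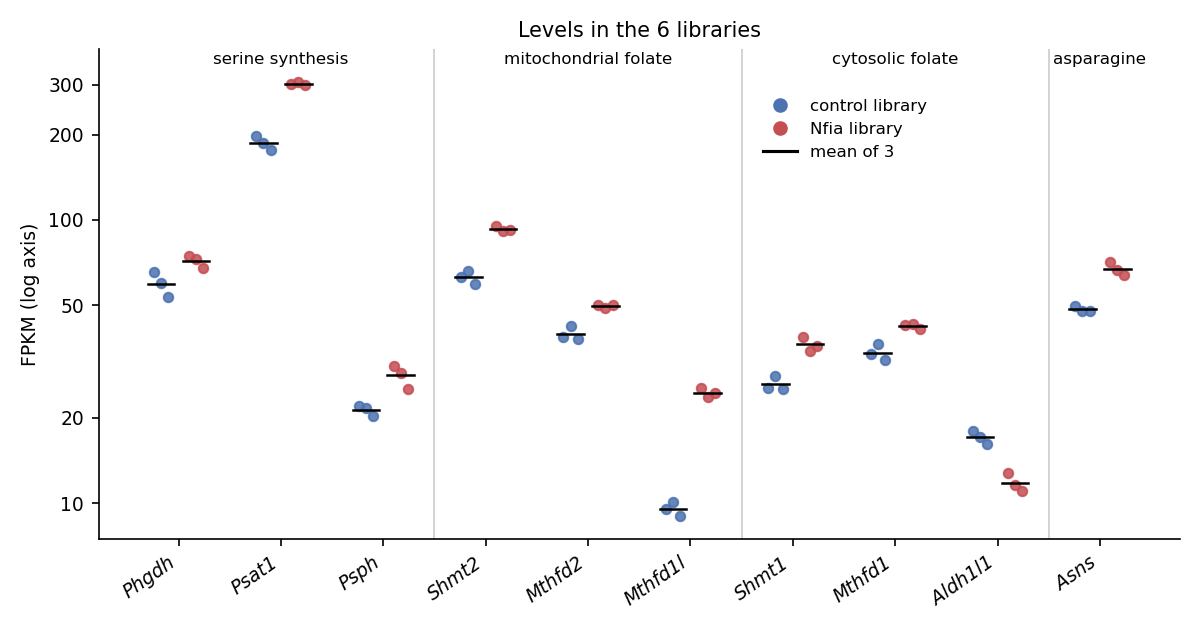
FPKM on a log axis of the 10 enzymes, grouped by role, in the 3 control (blue) and 3 Nfia (red) libraries, with points for single libraries and black lines for the mean of 3. The 2 groups do not overlap for any of the 10, and Aldh1l1 is the gene whose Nfia libraries lie below its control libraries.

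The enzymes differed widely in level. Psat1 was the most abundant in both groups, at 187 ± 10.7 FPKM in control (SD, n = 3), higher than 96.8% of the genes tested. Mthfd1l was the lowest in control, at 9.55 ± 0.555 FPKM. Between them in control stood Shmt2, Phgdh, Asns, Mthfd2, Mthfd1, Shmt1, Psph and Aldh1l1, in falling order. Shmt2 and Phgdh were the only neighbours whose control ranges overlapped (59.4 to 66.0 and 53.4 to 65.2 FPKM). With Nfia the first 8 places held the same genes in the same order, and the last 2 changed places. Mthfd1l, at 24.6 ± 0.964 FPKM, then overlapped with Psph, and Aldh1l1 was the lowest at 11.8 ± 0.912 FPKM. Phgdh and Asns also overlapped in the Nfia group.

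All 3 genes of serine synthesis rose, Psat1 by the largest factor and Phgdh by the smallest. Psat1, the aminotransferase of the second step, was 197.9, 186.3 and 176.5 FPKM in control 1 to 3 and 300.5, 305.3 and 299.9 FPKM in Nfia 1 to 3. The lowest Nfia library stood 102.0 FPKM above the highest control library, the widest gap in FPKM among the 10. Its ratio of means was 1.62 (log2 difference 0.69, SE 0.05, adjusted p = 0.000453), and 96.8% of genes tested had a smaller difference.

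Psph, the phosphatase that releases serine in the last step, was 21.998, 21.7 and 20.3 FPKM in the control libraries and 30.6, 28.8 and 25.3 FPKM in the Nfia libraries. The Nfia libraries varied more (coefficient of variation 9.55%) than the control libraries (4.34%), and they did not overlap with them. The ratio of means was 1.33 (log2 difference 0.39, SE 0.07, adjusted p = 0.00944). Phgdh, the dehydrogenase that opens the pathway, was 65.2, 59.8 and 53.4 FPKM in the control libraries and 74.4, 72.4 and 67.9 FPKM in the Nfia libraries. Here control 1 and Nfia 3 came within 2.63 FPKM of each other. The ratio of means was 1.203 (log2 difference 0.27, SE 0.08, adjusted p = 0.0402). That call was lost on removal of control 2 (adjusted p = 0.0894), control 3 (0.0868), Nfia 1 (0.103) or Nfia 2 (0.110), and also under upper-quartile scaling (0.0634), with no filter on low values (0.0625) and without a variance trend (0.0553).

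The mitochondrial folate enzymes among the 10 all rose, and Mthfd1l changed most of the 10. Mthfd1l, which releases formate from formyl-tetrahydrofolate, was 9.52, 10.1 and 9.02 FPKM in control and 25.6, 23.6 and 24.5 FPKM with Nfia. Each Nfia library was more than 13 FPKM above the highest control library (gap 13.5 FPKM). Its ratio of means was 2.57 (log2 difference 1.28, SE 0.06, adjusted p = 9.77e-05). It ranked 161 by size of increase and 15 by p-value among the 12537 genes.

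Shmt2, the mitochondrial hydroxymethyltransferase, was 63.0, 66.0 and 59.4 FPKM in control and 94.9, 91.3 and 92.1 FPKM with Nfia, with 25.3 FPKM between the groups. The ratio of means was 1.48 (log2 difference 0.56, SE 0.05, adjusted p = 0.000616). Mthfd2, the dehydrogenase and cyclohydrolase between Shmt2 and Mthfd1l, was 38.7, 42.2 and 38.1 FPKM in control and 50.1, 48.9 and 50.02 FPKM with Nfia. The 3 Nfia libraries were close together (coefficient of variation 1.33%), and the ratio of means was 1.25 (log2 difference 0.32, SE 0.05, adjusted p = 0.0043). Among these mitochondrial enzymes the increases were thus unequal in size, with log2 differences of 0.32 to 1.28.

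The cytosolic enzymes divided, with Shmt1 and Mthfd1 higher and Aldh1l1 lower. Shmt1 was 25.6, 28.1 and 25.2 FPKM in control and 38.7, 34.6 and 35.8 FPKM with Nfia, a ratio of means of 1.38 (log2 difference 0.45, SE 0.06, adjusted p = 0.00275). Mthfd1, the trifunctional cytosolic enzyme, was 33.5, 36.4 and 31.9 FPKM in control and 42.5, 43.0 and 41.3 FPKM with Nfia, a ratio of 1.24 (log2 difference 0.31, SE 0.06, adjusted p = 0.00732). Neither gene's groups overlapped.

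Aldh1l1 was 17.9, 17.2 and 16.2 FPKM in the control libraries and 12.8, 11.6 and 11.04 FPKM in the Nfia libraries. The highest Nfia library lay 3.34 FPKM under the lowest control library. The ratio of means was 0.691 (log2 difference -0.50, SE 0.07, adjusted p = 0.00265), and 4.87% of genes tested had a lower difference. The calls of these 3 genes held without any 1 library, with adjusted p up to 0.0131, 0.0321 and 0.0144 for Shmt1, Mthfd1 and Aldh1l1.

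**Figure D2:**
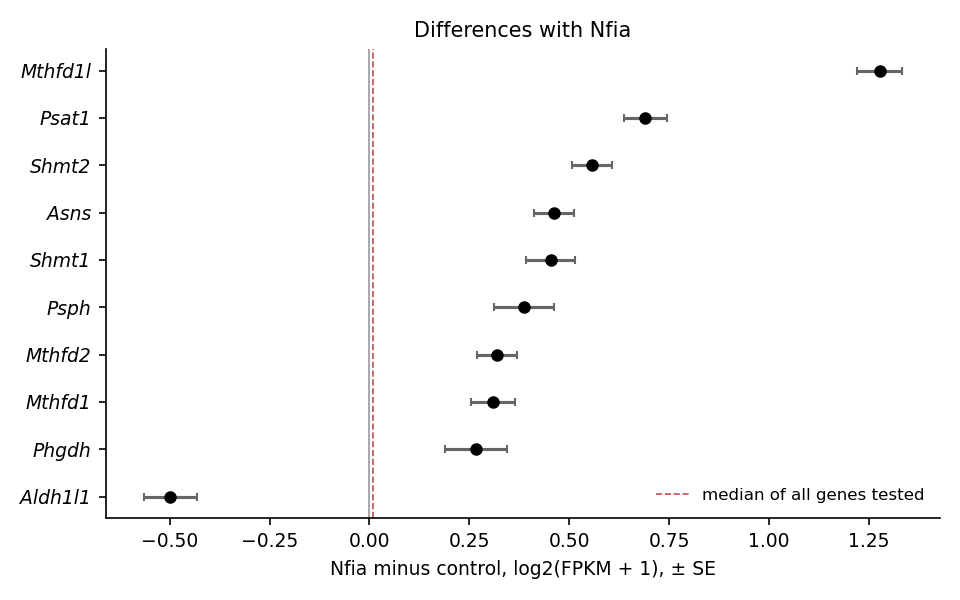
Difference between Nfia and control on the log2(FPKM + 1) scale for each of the 10 enzymes, with SE bars from limma, over 3 libraries per group. Mthfd1l stands highest at 1.28 and Aldh1l1 alone is below 0, at -0.50, and the dashed line is the median of all genes tested (0.01).

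Since several steps have a mitochondrial and a cytosolic enzyme, the ratio of their FPKM was taken within each library, for 4 pairs. The ratio of Mthfd1l to Mthfd1 was 0.284, 0.278 and 0.283 in the control libraries and 0.601, 0.550 and 0.594 in the Nfia libraries. The groups did not overlap. The log2 ratio, taken here and below after adding 1 to each FPKM, differed by 0.97. Aldh1l2, the mitochondrial partner of Aldh1l1, itself rose from 6.68 ± 0.229 to 9.54 ± 0.139 FPKM, a log2 difference of 0.46 (adjusted p = 0.00121). The ratio of Aldh1l2 to Aldh1l1 was 0.379, 0.374 and 0.423 in control and 0.733, 0.825 and 0.876 with Nfia, a log2 difference of 0.96.

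The other 2 ratios moved little. Shmt2 to Shmt1 was 2.46, 2.35 and 2.36 in control and 2.45, 2.64 and 2.57 with Nfia (log2 difference 0.10). These ranges of plain FPKM ratios overlap, but with 1 added to each FPKM the groups did not. Mthfd2 to Mthfd1 was 1.15, 1.16 and 1.19 in control and 1.18, 1.14 and 1.21 with Nfia (log2 difference 0.01). The exact two-sided permutation test of 3 against 3 libraries, on log2(FPKM + 1), gave p = 0.1, the smallest it can give, for every pair except Mthfd2 to Mthfd1 (exact p = 0.7). Adjusted over the 4 pairs these became 0.133 and 0.7, so no ratio passed. Mthfd2l, the close relative of Mthfd2 in mitochondria, had 18.1 ± 1.90 FPKM in the control group against 16.4 ± 1.04 FPKM with Nfia and was not called (log2 difference -0.13, adjusted p = 0.260).

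**Figure D3:**
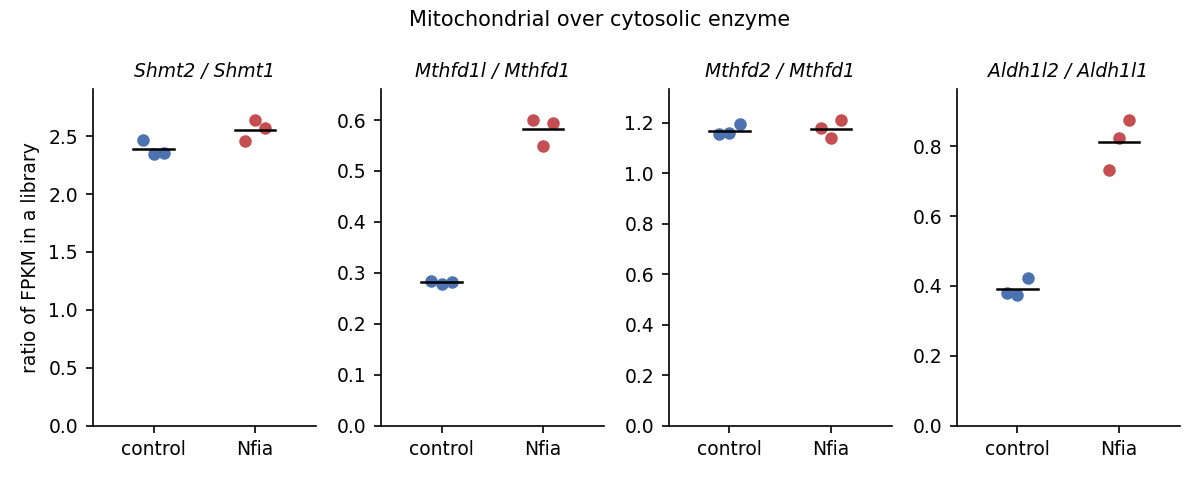
Ratio of the FPKM of a mitochondrial enzyme to that of its cytosolic partner in each control (blue) and Nfia (red) library, with black lines for the mean of 3 and each axis starting at 0. The Mthfd1l to Mthfd1 ratio goes from a mean of 0.281 to 0.582 and the Aldh1l2 to Aldh1l1 ratio from 0.392 to 0.811, while the other 2 pairs overlap between groups.

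Asns, the asparagine synthetase, was 49.7, 47.8 and 47.7 FPKM in control and 71.0, 66.7 and 63.6 FPKM with Nfia. The control libraries were close together (coefficient of variation 2.41%), and the lowest Nfia library stood 13.9 FPKM above them. The ratio of means was 1.39 (log2 difference 0.46, SE 0.05, adjusted p = 0.00131), near that of Shmt1.

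Because 9 of the enzymes moved together, their promoter windows (250 bases before to 50 after the start, RefSeq, GRCm38.p6) were searched on both strands for 3 motifs. These were TGATGNAA, the core of the C/EBP-ATF response element through which ATF4 acts, CACGTG, the E-box bound by Myc, and TTGGCA, an NFI half-site. All 10 genes matched the table, Psat1 with 2 starts. Each window covers 1 listed start, which need not lie at the end of the gene's span. That of Mthfd2, at chr6:83317555-83317854, lies inside its span of chr6:83305704-83326011. The window of Mthfd1 (chr12:76254982-76255281) and the second of Psat1 (chr19:15924573-15924872) also lie wholly inside the spans of their genes. TGATGNAA was found in 1 of the 10, Asns, against 3.97% of all 32851 windows and 2.09% of the windows of tested genes. CACGTG and TTGGCA were found in 0 of the 10, against 9.93% and 10.9% of the windows of tested genes. A match of letters is a description and not a binding site, and no match says only that these letters are not in these windows.

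Windows are shown for Asns, which holds the match, for Psat1 and Mthfd1l, the 2 largest increases, and for Aldh1l1, the decrease. They lie at chr6:7693160-7693459 (minus strand), chr19:15925010-15925309 (minus strand, the first of its 2 starts), chr10:3972825-3973124 (plus strand) and chr6:90550543-90550842 (plus strand). Each is written 5′ to 3′ along its gene, and capitals mark the motif match, which begins 23 bases before the start of Asns.
Asns promoter: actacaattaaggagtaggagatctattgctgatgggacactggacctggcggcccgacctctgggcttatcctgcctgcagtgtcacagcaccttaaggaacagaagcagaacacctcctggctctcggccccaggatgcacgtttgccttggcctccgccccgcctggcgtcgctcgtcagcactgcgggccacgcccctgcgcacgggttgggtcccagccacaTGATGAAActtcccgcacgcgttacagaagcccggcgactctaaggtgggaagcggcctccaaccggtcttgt
Psat1 promoter: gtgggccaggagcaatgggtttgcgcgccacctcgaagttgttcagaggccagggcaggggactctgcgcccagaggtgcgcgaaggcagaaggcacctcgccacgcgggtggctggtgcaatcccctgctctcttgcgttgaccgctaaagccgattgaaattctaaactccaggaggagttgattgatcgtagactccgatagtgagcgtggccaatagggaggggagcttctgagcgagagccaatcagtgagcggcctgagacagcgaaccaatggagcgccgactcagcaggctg
Mthfd1l promoter: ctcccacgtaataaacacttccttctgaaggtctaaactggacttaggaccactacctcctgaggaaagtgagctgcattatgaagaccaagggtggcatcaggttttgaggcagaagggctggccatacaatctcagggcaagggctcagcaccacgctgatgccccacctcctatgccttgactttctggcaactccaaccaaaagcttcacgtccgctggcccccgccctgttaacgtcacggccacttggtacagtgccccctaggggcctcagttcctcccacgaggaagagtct
Aldh1l1 promoter: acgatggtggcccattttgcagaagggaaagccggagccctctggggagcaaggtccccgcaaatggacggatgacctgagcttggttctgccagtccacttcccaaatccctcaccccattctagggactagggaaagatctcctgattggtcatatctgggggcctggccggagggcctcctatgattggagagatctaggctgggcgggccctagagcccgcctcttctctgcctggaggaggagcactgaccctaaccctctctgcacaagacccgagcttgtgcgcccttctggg

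The whole genes span chr6:7675165-7693209 (Asns), chr19:15905123-15925059 (Psat1), chr10:3972892-4167081 (Mthfd1l) and chr6:90550768-90599171 (Aldh1l1) in GRCm38. The others span chr3:98313171-98339969 (Phgdh), chr5:129765558-129787443 (Psph), chr11:60788897-60811265 (Shmt1), chr10:127517123-127522444 (Shmt2), chr12:76254406-76319820 (Mthfd1) and chr6:83305704-83326011 (Mthfd2). In the same table the span of Psph shares 88 bases with Cct6a, and Shmt2 shares 32 bases with Ndufa4l2. Neither neighbour was called higher: Cct6a had an adjusted p of 0.256, and Ndufa4l2 was lower (log2 difference -0.51, adjusted p = 0.0337). The other overlaps, of Mthfd1, Mthfd1l and Aldh1l1, were with noncoding or pseudogene models that were not among the genes tested.

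Around these enzymes, genes of 8 neighbouring lists were counted in the same way and are read against the shares of all genes called (16.1% higher, 15.1% lower). The glycine cleavage system, which also feeds carbon from glycine into the mitochondrial folate pool, had 0 of 4 genes called by limma, with 0 higher and 1 lower at an unadjusted p under 0.05. Gldc, its decarboxylase, named after its values were seen, had 27.2 ± 2.82 FPKM in the control group against 28.4 ± 1.97 FPKM with Nfia. Without Nfia 3, 1 of the 4 was called higher. Of 12 other folate genes tested (3 more were below the filter), 3 rose and 0 fell (0 lower also at an unadjusted p under 0.05). Besides Aldh1l2 these were Slc19a1, the reduced folate carrier (log2 difference 0.35, adjusted p = 0.00462), and Fpgs, which adds the glutamate tail that keeps folate in the cell (0.31, adjusted p = 0.0129).

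Transport of serine and related amino acids held the largest called change of the 8 lists. Slc1a4, a neutral amino acid exchanger that carries serine, rose from 24.9 ± 1.15 to 54.0 ± 3.74 FPKM, a log2 difference of 1.09 (adjusted p = 0.000179). Its relative Slc1a5 rose from 10.7 ± 0.194 to 15.4 ± 0.727 FPKM, and Sfxn1, the mitochondrial serine carrier, from 50.5 ± 1.12 to 63.8 ± 0.947 FPKM. Sfxn3 and Sptlc2, a subunit of the enzyme that joins serine to a fatty acid for sphingolipids, also rose (0.32 and 0.26). Glyctk, the glycerate kinase, fell from 6.30 ± 0.208 to 3.95 ± 0.599 FPKM. Srr, the serine racemase that makes D-serine, fell from 13.5 ± 0.363 to 9.74 ± 0.308 FPKM. Serinc2 and Serinc1 fell with log2 differences of -0.41 and -0.22. In all, 5 of 16 tested rose and 4 fell. The call of Sptlc2 was lost on removal of Nfia 2 (adjusted p = 0.0513), and that of Serinc1 on removal of control 1, control 3, Nfia 1 or Nfia 2 (adjusted p up to 0.06998).

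Among the pathways that use one-carbon units, purine synthesis had 7 of 12 genes higher and 0 lower (0 lower also at an unadjusted p under 0.05), with a median log2 difference of 0.19. Atic, which inserts the second formyl group of the purine ring, rose from 42.9 ± 0.705 to 54.6 ± 3.09 FPKM, a log2 difference of 0.34 (adjusted p = 0.00375). Prps1 rose by 0.19, Pfas by 0.23 and Impdh1 by 0.18. The count was 3 without control 1, control 3 or Nfia 2 and 2 without Nfia 1, and it was 3 under upper-quartile scaling. The call of Pfas was lost on removal of control 1, Nfia 1 or Nfia 3 (adjusted p up to 0.0637), and that of Impdh1 on removal of any 1 library but Nfia 3 (adjusted p up to 0.0964).

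In the methionine cycle and salvage list 2 of 13 rose and 1 fell. Mtap, which recycles methylthioadenosine, rose from 38.6 ± 1.80 to 56.2 ± 2.84 FPKM, a log2 difference of 0.53 (adjusted p = 0.00105). Mri1 rose by 0.28 and Adi1, also of the salvage route, fell by 0.24. The call of Mri1 was lost on removal of control 2, control 3, Nfia 1 or Nfia 2 (adjusted p up to 0.0772), and that of Adi1 on removal of any 1 library but control 2 (adjusted p up to 0.106). Of 5 genes of transsulfuration and glutathione synthesis, 2 rose and 0 fell (0 lower also at an unadjusted p under 0.05). Cbs, which joins homocysteine to serine, went from 10.8 ± 0.337 to 16.4 ± 0.956 FPKM, a log2 difference of 0.56 (adjusted p = 0.000868), and Gclm, a subunit of the enzyme of the first glutathione step, rose by 0.29.

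Among 15 genes of glutamine, glutamate, aspartate and proline metabolism, 4 rose and 1 fell. Gpt2, the mitochondrial alanine aminotransferase, rose from 17.3 ± 1.43 to 30.4 ± 1.45 FPKM, a log2 difference of 0.78 (adjusted p = 0.000575). Smaller increases of Oat (0.29), Got1 (0.21) and Glud1 (0.14) each lost their call when control 1, control 3, Nfia 1 or Nfia 2 was removed (adjusted p up to 0.103, 0.0716 and 0.0742). Asrgl1, an asparaginase, fell by 0.30 on the log2 scale, a call lost on removal of any 1 library but Nfia 1 (adjusted p up to 0.112). The count higher was 1 without control 1, control 3 or Nfia 1 and 2 without Nfia 2.

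The last list held regulators of these enzymes and other targets of ATF4, of which 8 of 18 rose and 1 fell. Myc, a transcription factor known to drive serine and one-carbon genes in growing cells, rose from 48.1 ± 3.07 to 77.6 ± 3.35 FPKM, a log2 difference of 0.68 (adjusted p = 0.000575). Chac1, an ATF4 target that degrades glutathione, rose from 5.11 ± 0.448 to 7.78 ± 0.708 FPKM, Nfe2l2 (NRF2) by 0.36 and Atf5 by 0.18. Ddit3 (CHOP), a stress-induced target of ATF4, fell by 0.19, a call lost on removal of Nfia 1 (adjusted p = 0.0571) or Nfia 2 (0.0568). Atf4 itself was named after its values were seen: it had 210.0 ± 14.5 FPKM in the control group against 246.0 ± 8.45 FPKM with Nfia (log2 difference 0.23, adjusted p = 0.0333), and its call was lost on removal of control 1, control 3, Nfia 1 or Nfia 2 (adjusted p up to 0.0943). The count higher was 4 without control 1 or Nfia 2 and 5 without control 2, control 3 or Nfia 3.

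**Figure D4:**
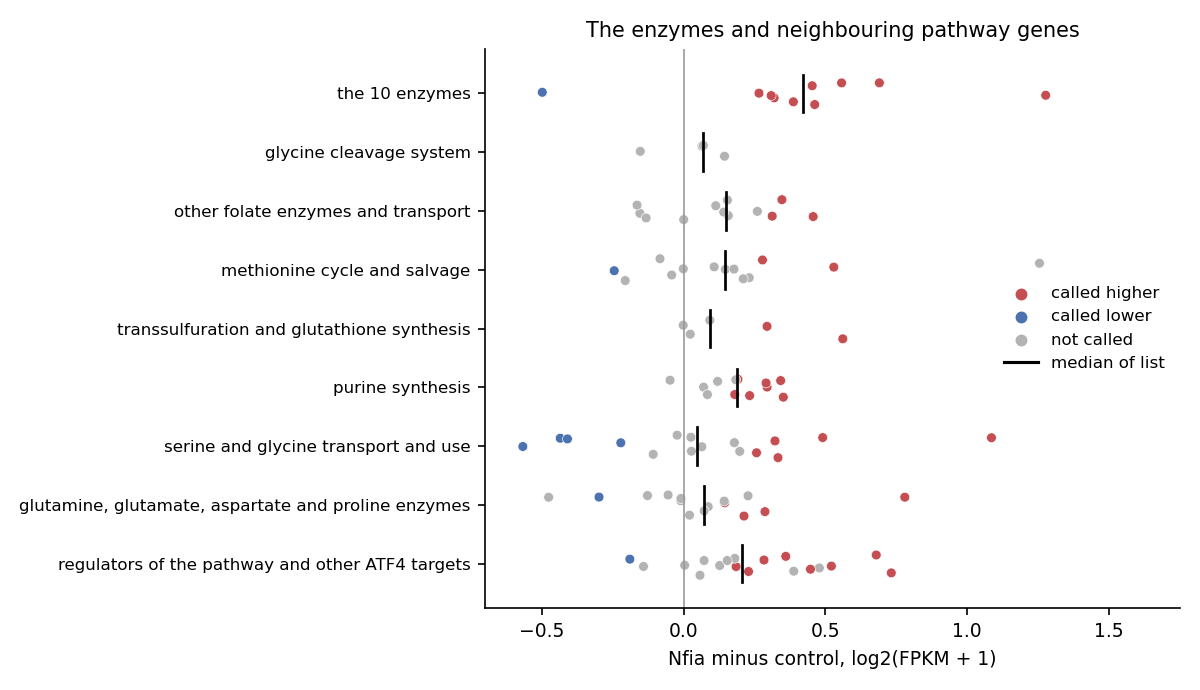
Differences between Nfia and control on the log2(FPKM + 1) scale for the 10 enzymes and the tested genes of 8 neighbouring lists, with 1 point per gene, coloured where called higher (red) or lower (blue), and black lines for the list medians. The median of the 10 is 0.42 and those of the lists lie between 0.05 and 0.21.

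Mthfd1l, with the smallest adjusted p of the 10, was also compared with every gene tested by its profile over the 6 libraries, as log2(FPKM + 1) centred on the control mean. The 5 genes with the smallest root mean square difference from it were Sec14l2 (0.05), Sox8 (0.07), Egfr (0.08), Zfp36l2 (0.08) and Ets1 (0.08). Their ratios of mean FPKM were 2.61, 2.501, 2.44, 2.51 and 2.79. The 6 libraries fall into 2 groups, so the likeness rests mainly on a similar size of increase.

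Markers of cell types were summed in each library beside these results. Counts of called markers, here and in the next paragraph, are read against all genes tested (16.1% higher, 15.1% lower). In bulk RNA, fewer cells of a type and less RNA per cell cannot be told apart. Of 9 neuron markers 8 were lower, and their sum was 1378 to 1492 FPKM in control and 814 to 837 FPKM with Nfia. Of 12 proliferation markers 7 were higher and 0 lower, with sums of 1121 to 1189 and 1348 to 1445 FPKM. The count was 4 without control 1, control 2, control 3 or Nfia 2. Of 9 neural precursor markers 3 were higher and 3 lower, with overlapping sums of 5474 to 5952 and 5390.5 to 6466 FPKM. Most of the sum came from Fabp7 (means of 3426 and 2957 FPKM, not called) and Vim (1888 and 2443 FPKM, called higher). The call of Vim was lost on removal of control 1, control 3 or Nfia 2. That of Hes5, called lower, was lost on removal of control 1, control 2 or Nfia 2. Nes and Hes1, called higher, and Pax6 and Msi1, called lower, kept their calls with each library removed in turn. The part of these marker changes in the results on the enzymes was not tested.

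Astrocyte markers are given because Aldh1l1 is used as one. Of 7 others tested, 3 were higher (Slc1a3, Aldoc and Fgfr3) and 2 lower (Gfap and Sox9). The markers thus went both ways, and the median log2 difference of the 7 was 0.06. Aqp4, S100b and Gjb6 were below the filter and not tested, at control means of 0.577, 0.686 and 0.474 FPKM. For each of them every Nfia library lay below every control library, which held for 22.9% of all genes tested. No such share was taken over genes below the filter. Over all 10 the sum was 298 to 337 FPKM in control and 397 to 408 FPKM with Nfia. Most of it came from Aldoc (116 ± 9.86 and 179 ± 5.60 FPKM) and Slc1a3 (56.5 ± 2.75 and 85.3 ± 1.747 FPKM), with Gja1 and Sox9. The call of Gfap was lost on removal of control 1, control 2, control 3 or Nfia 3 (adjusted p up to 0.0913), that of Sox9 on removal of any 1 library but control 1 (adjusted p up to 0.103) and that of Fgfr3 on removal of control 3 (adjusted p = 0.0517). Oligodendrocyte lineage markers also went both ways (2 of 7 tested higher, Olig1 and Olig2, and 2 lower, Pdgfra and Mbp). Over all 8, Mog included, they summed to 364 to 411 FPKM in control and 1055 to 1116 FPKM with Nfia, nearly all of it Olig1 and Olig2. Microglia and blood markers were near 0 (sums of 1.68 to 3.45 FPKM over 10 genes, none tested). Endothelial and mesenchymal markers summed, over 11 genes, to 8.21 to 18.3 FPKM in control and 6.59 to 18.0 FPKM with Nfia. Of 7 tested, 1 was lower (14.3%), near the share of all genes. Col1a1, Col1a2, Col3a1, Lum, Dcn and Pdgfrb were lowest in control 1 and in Nfia 1, and Cldn5, the gene called lower, was not. Col3a1 was 1.32, 4.71 and 5.02 FPKM in control and 1.19, 5.54 and 4.84 FPKM with Nfia. The reason for this spread was not tested.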

How the data were processed

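The authors deposited 1 FPKM value per gene symbol and library, in files with no header, so the unit rests on the values and on the tools named. Cufflinks, Cuffdiff, TopHat, SAMtools, Bowtie (version 1), MACS (version 1.4) and the build mm10 are listed in the submitters' processing notes, without roles. Annotation, strand use and the treatment of reads matching several genes: not given in the sources used here. FPKM is a share of the library. In FPKM the worth of 1 read depends on the gene's length, whole reads were not recovered and no count test was run. Relative depth is the commonest ratio between libraries over 1610 genes with a mean under 0.3 FPKM. The pair of ChIP samples was not used here.

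Genes whose mean reached 1 FPKM were tested on log2(FPKM + 1) as deposited, in limma (version 3.58.1, under R 4.3.3) (variance trend, two-sided, Benjamini-Hochberg over 12537 genes). The fit was tested on simulated data. The members and lists were chosen with earlier results of these data known. Of each of the 8 neighbouring lists up to 4 called genes with the smallest adjusted p are named, and all genes of counts up to 5. The marker lists did not follow this rule. Alternatives were a pseudocount of 0.1, no filter, a mean of at least 5 FPKM, quantile, upper-quartile and median-of-ratios scaling, no trend, a robust trend, the replicate number as a block, and leaving out each library. Promoter windows and gene spans are from RefSeq (GRCm38.p6, the assembly mm10 denotes), matched by symbol.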

Additional observations from a re-analysis of the deposited data

How the results depend on the processing

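The directions of all 10 enzymes and of Nfia held under the 15 alternatives, and every call but that of Phgdh did. The log2 difference of Phgdh was 0.23 under upper-quartile scaling, 0.27 with no filter on low values and 0.27 without a variance trend, each with an adjusted p above 0.05, and 0.19 to 0.33 when 1 library was left out. Leaving out 1 library gave 1311 to 1724 of all genes higher, the fewest without Nfia 2. It gave 0 to 1 glycine cleavage genes higher, 1 to 3 methionine genes higher and 0 to 1 lower, and 2 to 5 purine genes higher. For the glutamine to proline list it gave 1 to 5 higher and 0 to 1 lower, and for the regulators 4 to 8 higher and 0 to 1 lower. The Mthfd2 to Mthfd1 log2 ratio ranged from -0.0111 to 0.0331, with its sign reversed without Nfia 3. With no filter, 0 methionine genes were lower, 4 purine genes higher, 0 glutamine-list genes lower and 4 regulators higher. Without a trend, 0 methionine genes were lower and 4 purine genes higher. Upper-quartile scaling gave 1 glycine cleavage gene lower, 3 purine genes higher, and 2 higher and 2 lower in the glutamine list, and quantile normalization gave 4 purine genes higher and 2 glutamine-list genes lower. The causes were not tested, except that a left-out library leaves fewer samples. Scaling moved the median of all genes by under 0.1.

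With the replicate block, 1 glycine cleavage gene was called lower and 4 methionine genes higher with 0 lower, and 9 enzymes were higher and 1 lower as without it. Over all genes the block gave 2130 higher and 1916 lower. The numbers do not pair the samples by the labels. Over the genes tested, deviations of same-numbered libraries correlated at 0.03, -0.01 and 0.05, within the -0.103 to 0.0799 of differently numbered ones. Phgdh, Psph, Aldh1l1 and Asns fell from library 1 to 3 in both groups, as did total FPKM, and Mthfd1 also kept its order. The other enzymes did not. With the block the limma adjusted p of Phgdh went from 0.0402 to 0.015, and 10 proliferation markers were higher against 7 without it. Whether same-numbered libraries share a source was not tested. FPKM without counts gives no counting error for low genes.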

Other observations

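Amd1, of the methionine list, which makes decarboxylated S-adenosylmethionine for polyamines, differed widely between libraries of the same group. It was 0.0159, 0.0181 and 5.04 FPKM in the control libraries and 4.32, 14.7 and 0.0190 FPKM in the Nfia libraries. It was not called by limma (log2 difference 1.26, adjusted p = 0.422), and it was named after its values were seen. Ass1, of the glutamine to proline list and also named after its values were seen, differed widely within groups too. It was 3.46, 0.000528 and 2.91 FPKM in control and 1.23, 0.000136 and 1.91 FPKM with Nfia, and it was not called by limma (adjusted p = 0.610). The reason for the values near 0 in single libraries was not tested.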
